A study of Mus musculus with 3 samples.

Results

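The genes described are 9 that shape and coat the foot processes of podocytes: Synpo, Actn4, Inf2, Arhgap24 and Rhpn1 of the actin machinery, Podxl, Ezr and Slc9a3r1 of the apical membrane complex, and Dag1, which ties the membrane to matrix. They were taken by symbol, and the 9 symbols matched 9 of the 31058 rows of the gene table. Their raw counts of unique molecular identifiers (UMIs, 1 per captured RNA molecule) were summed over the cells of each marker-defined class in each library, and given per 1000000 UMIs of that class (CPM).

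The study made 1 droplet library of 3′ gene expression tags from glomerular cells of each of 3 groups of healthy C57Bl/6 mice. The first group was male, with the genotype Pax2.rtTA;TetO.Cre;R26.Confetti. The second was female with the same alleles and ERalphaKO, a knockout of oestrogen receptor alpha (gene Esr1), called female ERaKO here. Its sample title reads Female RPC-ERαKO mouse, and in which cells Esr1 was removed was not checked here. The third was female with Pax2.rtTA;TetO.Cre;R26.Confetti and no ERalphaKO. All groups thus carried the Pax2-driven, doxycycline-inducible Cre and the Confetti reporter, were given doxycycline at day 20 of life and were followed to day 90. Recombination could reach only cells in which the Pax2 promoter was active at induction, and which of the sampled cells these were was not tested here. The labels do not say which part of Esr1 was removed or whether a library pools mice. Esr1 UMIs were present in 2 of 1142 podocytes of the male library, 3 of 782 of the female ERaKO library and 1 of 1323 of the female library. A 3′ tag outside the deleted part checks nothing, so the deletion was not checked here.

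Foot processes are the interlocking extensions with which podocytes cover the glomerular capillaries, and their shape depends on a bundle of actin filaments. Synaptopodin (Synpo) and alpha-actinin-4 (Actn4) bind and cross-link that bundle, the formin INF2 (Inf2) elongates and severs filaments, and ARHGAP24 and rhophilin-1 (Rhpn1) act on small GTPase signalling. The apical surface is covered by podocalyxin (Podxl), a negatively charged sialomucin that is joined to actin through ezrin (Ezr) and the PDZ scaffold NHERF1 (Slc9a3r1). Human variants in ACTN4, INF2, ARHGAP24 and PODXL are known in focal segmental glomerulosclerosis.

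For 5 of the 9 genes (Actn4, Inf2, Ezr, Slc9a3r1 and Dag1), RefSeq promoter windows on GRCm38.p6 were at hand. Podxl, Arhgap24, Rhpn1 and Synpo had no entry. The 250 bases before the gene start are shown for 3 genes that differ in which other cells share them, as described further on: Actn4 (contractile and endothelial cells), Ezr (parietal, tubular and phagocytic cells) and Slc9a3r1 (highest in proximal tubule cells). They lie at chr7:28962333-28962582 (minus strand), chr17:6782781-6783030 (minus strand) and chr11:115163091-115163340 (plus strand). Each is written 5′ to 3′ along the gene, and capitals mark the GC box, GGGCGG on either strand.
Actn4: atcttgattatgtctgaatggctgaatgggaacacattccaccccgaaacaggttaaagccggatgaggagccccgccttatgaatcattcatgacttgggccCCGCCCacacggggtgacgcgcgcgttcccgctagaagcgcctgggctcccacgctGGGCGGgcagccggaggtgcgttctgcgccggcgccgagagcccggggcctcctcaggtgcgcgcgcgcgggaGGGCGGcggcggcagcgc
Ezr: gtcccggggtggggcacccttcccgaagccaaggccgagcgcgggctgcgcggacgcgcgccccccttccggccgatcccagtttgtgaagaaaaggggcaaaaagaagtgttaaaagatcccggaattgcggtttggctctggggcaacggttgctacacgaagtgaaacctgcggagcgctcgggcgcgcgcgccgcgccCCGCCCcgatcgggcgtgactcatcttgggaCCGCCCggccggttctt
Slc9a3r1: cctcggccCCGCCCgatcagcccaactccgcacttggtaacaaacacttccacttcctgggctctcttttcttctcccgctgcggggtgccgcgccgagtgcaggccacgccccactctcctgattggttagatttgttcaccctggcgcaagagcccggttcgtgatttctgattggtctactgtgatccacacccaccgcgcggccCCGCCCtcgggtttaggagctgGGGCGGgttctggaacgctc
The windows of the 5 genes, each at its first listed start, held 3 GC boxes for Actn4, 2 for Ezr, 3 for Slc9a3r1, 5 for Inf2 and 3 for Dag1, where 32.7% of 32851 promoter windows of the same length held at least 1. GGAATG, a letter form of the TEAD site, was found once for Actn4 and 3 times for Inf2 and not for the other 3 genes (12.6% of all windows). CAGCTG, an E-box, and GTAAACA, a forkhead site, were not found in the 5 windows (13% and 3.17% of all windows). Both strands were searched, a palindrome was counted once, and overlapping matches, as between GC boxes of Inf2, were each counted. The G and C content was 67.6% for Actn4, 67.2% for Ezr, 62.8% for Slc9a3r1, 68.4% for Inf2 and 67.6% for Dag1, against a median of 52.4% over all windows. These counts describe letters and say nothing of binding.

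After filters, 3224, 2520 and 2828 cells were kept in the male, female ERaKO and female libraries. Clusters were named podocyte-like, endothelial-like and so on from fixed marker lists that hold none of the 9 genes, and the names are used without the suffix below. The podocyte class held 1142, 782 and 1323 cells, and its 12 markers summed to 25470, 22880 and 23090 CPM, with none at 0. A further 7.04%, 10.52% and 9.51% of cells stayed unnamed. Podocyte markers also appeared in other classes: in endothelial cells Nphs1, which encodes nephrin of the slit diaphragm, stood at 2.06% to 3.16% of its podocyte level, and in the other 5 classes at 0.705% to 7.09%. The highest of the 12 podocyte markers reached 14.0% to 21.4% of its podocyte level in endothelial cells and 26.6% to 28.6% in parietal epithelial cells. A member at or under the level of Nphs1 is not told apart here from podocyte RNA in that class, and each level was also taken in cells with no Nphs1 UMI. Gene positions below are those of GENCODE M21 on GRCm38 (mm10). The female ERaKO library had 34.0% of barcodes over the mitochondrial limit, against 21% in the male and 17.7% in the female library.

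In 6 of the 9 genes (Synpo, Inf2, Arhgap24, Rhpn1, Podxl and Ezr) the CPM of all 3 podocyte sums lay above all 18 sums of the 6 other classes, where 8.09% of 12749 genes did so. Actn4 was higher in mesangial cells, Slc9a3r1 was higher in proximal tubule cells, and Dag1 overlapped with parietal epithelial cells. The podocyte level of Rhpn1 was 37.2, 11.6 and 22.2 times that of its highest other class in the male, female ERaKO and female libraries, and that of Synpo 12.6, 13 and 13.9 times. By this ratio Rhpn1 stood apart more than Synpo in the male and female libraries and less in the female ERaKO library. The female ERaKO ratio of Rhpn1 rests on mononuclear phagocytes (50.74 CPM), where 4 of 54 cells held a Rhpn1 UMI. Endothelial cells of that library had 18.26 CPM, against 586.4 CPM in podocytes. Actn4, Dag1 and Slc9a3r1 were shared widely. The plot of levels by class shows the values of each library.

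**Figure D1:**
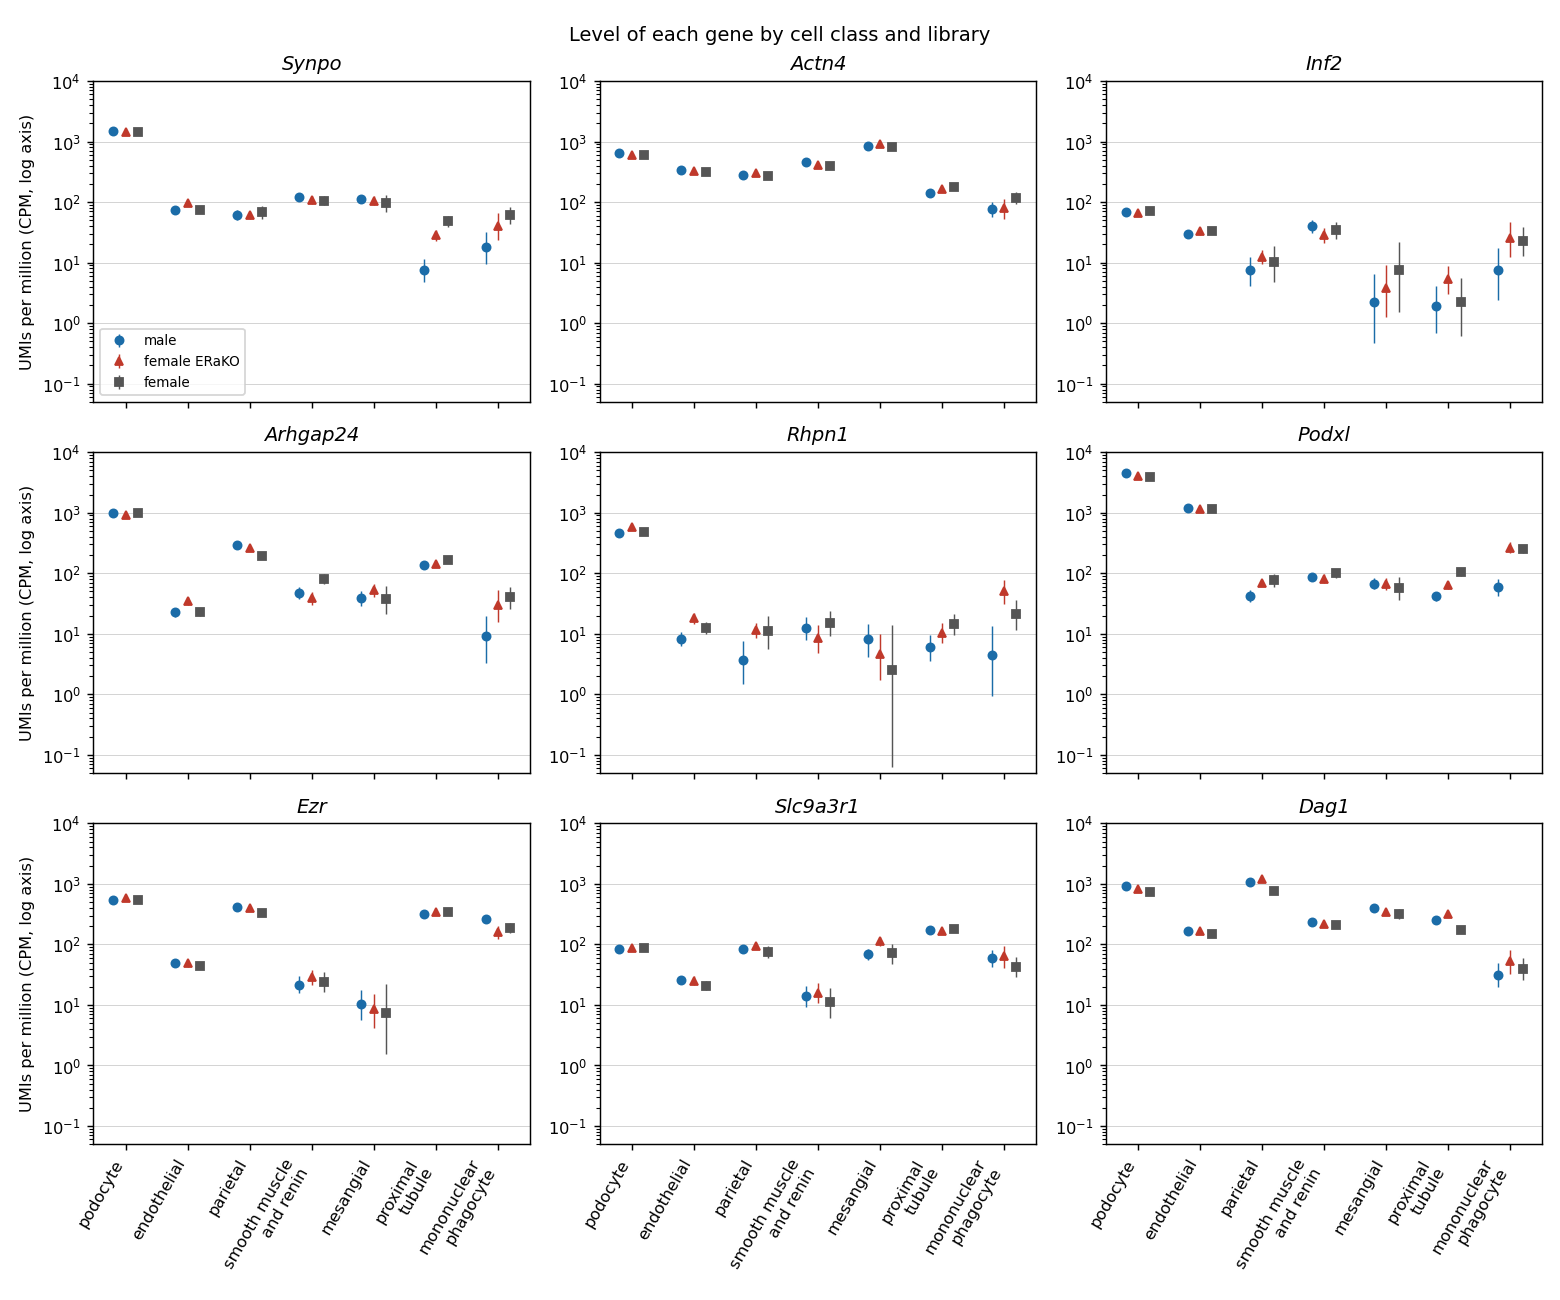
Level of each of the 9 genes in CPM (log axis) in 7 cell classes, podocytes at the left, with 1 point per library and bars for the exact 95% binomial interval of the share of class UMIs. Rhpn1 and Synpo stand in podocytes far above the other classes, while Actn4, Slc9a3r1 and Dag1 have a class at or above the podocyte level.

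Among the actin genes, Rhpn1, a GTPase-binding scaffold (chromosome 15, 75704280-75715485, plus strand), was higher in podocytes than in any other class. It had 464.1, 586.4 and 477.0 CPM in podocytes of the male, female ERaKO and female libraries, against 8.338, 18.26 and 12.53 CPM in endothelial cells and 3.724, 11.39 and 11.05 CPM in parietal epithelial cells. The groups did not overlap, and the endothelial level, at 1.80% to 3.11% of the podocyte level, was close to that of Nphs1. In endothelial cells without Nphs1 UMIs it was 0.301% to 0.712% of the podocyte level. The 12 podocyte markers ranged over the libraries from 1.73% to 21.4% of their podocyte level in endothelial cells. The source of the endothelial Rhpn1 UMIs was not tested. In smooth muscle and renin cells Rhpn1 was 1.46% to 3.20%, where Nphs1 stood at 1.96% to 2.27%, and it was 0.519% to 0.548% in those without Nphs1 UMIs. The highest other class was mononuclear phagocytes in the female ERaKO and female libraries (50.74 and 21.53 CPM), on 20 and 14 UMIs, and no such UMI was left there without the cells that carried Nphs1.

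Synpo, the actin-bundle protein named for synapses and podocytes (chromosome 18, 60593973-60660142, minus strand), had 1512, 1418 and 1461 CPM in podocytes of the male, female ERaKO and female libraries. Smooth muscle and renin cells followed with 119.9, 108.9 and 105.2 CPM, and mesangial cells with 113.4, 105.7 and 96.95 CPM, ranges that overlapped with each other but not with podocytes. Endothelial cells had 72.88, 97.14 and 74.03 CPM, and parietal epithelial cells 62.25, 60.26 and 67.32 CPM. Synpo in mesangial cells was 6.64% to 7.5% of the podocyte level, above the 0.876% to 1.17% of Nphs1 there. In those without Nphs1 UMIs it was 6.05% to 6.91%. In smooth muscle and renin cells without Nphs1 UMIs it was 5.97% to 6.92%. In endothelial cells it was 4.82% to 6.85%, and 3.28% to 3.39% without Nphs1 UMIs. In the contractile classes the low Synpo level was thus nearly as large without the cells that carried Nphs1.

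Arhgap24, a GTPase-activating protein for Rac (chromosome 5, 102481391-102897937, plus strand), had 990.7, 916.5 and 1004 CPM in podocytes of the male, female ERaKO and female libraries. Parietal epithelial cells came next with 295.8, 263.4 and 195.9 CPM, and proximal tubule cells with 134.8, 143.7 and 166.3 CPM. None of these ranges overlapped. In parietal epithelial cells Arhgap24 was 29.9%, 28.7% and 19.5% of the podocyte level, and 29.9%, 29.5% and 16.1% in those without Nphs1 UMIs. Smooth muscle and renin cells had 4.23% to 8% and endothelial cells 2.29% to 3.77% of the podocyte level. The endothelial level is close to that of Nphs1, and without Nphs1 UMIs it was 0.773% to 0.890%.

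Inf2, a formin (chromosome 12, 112588784-112615557, plus strand), was a low-count gene with 67.89, 65.38 and 70.01 CPM in podocytes of the male, female ERaKO and female libraries. It was shared with smooth muscle and renin cells, at 39.59, 28.50 and 34.53 CPM, and with endothelial cells, at 30.11, 32.83 and 33.70 CPM. These 2 classes overlapped with each other and lay below podocytes, at 43.6% to 58.3% and 44.4% to 50.2% of the podocyte level. In endothelial cells without Nphs1 UMIs the level was 41.2% to 48.9%. Mesangial cells had 3 to 5 Inf2 UMIs per library, and parietal epithelial cells 7.449 to 12.57 CPM. The ranges of smooth muscle and renin cells and of mesangial cells, 2.238 to 7.458 CPM, did not overlap.

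Actn4, the actin cross-linker (chromosome 7, 28893248-28962340, minus strand), was present in all 7 classes. It had 650.8, 589.7 and 602.3 CPM in podocytes of the male, female ERaKO and female libraries, against 840.1, 918.9 and 815.4 CPM in mesangial cells. The mesangial sums were higher in 3 of 3 libraries, at 129% to 156% of the podocyte level. Smooth muscle and renin cells had 463.2, 402.5 and 395.1 CPM, endothelial cells 335.4, 320.4 and 319.0 CPM, and parietal epithelial cells 284.1, 300.4 and 270.3 CPM. No 2 neighbours in the order of the 7 class ranges overlapped. The endothelial list, 11 markers, summed to 1641, 1954 and 2076 CPM in mesangial cells, with 1 marker at 0 in the male library, against 11770, 11260 and 12350 CPM in endothelial cells. Its part in the mesangial values was not tested, and the mesangial level of Actn4 was above the endothelial level in each library. Actn4 overlaps Capn12 on the other strand, and the sources used here do not say whether counting used the strand. Capn12 itself had 1.430, 1.265 and 4.412 CPM in podocytes.

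Of the apical genes, Podxl (chromosome 6, 31519488-31563981, minus strand) was shared chiefly with endothelial cells. It had 4469, 4065 and 3820 CPM in podocytes of the male, female ERaKO and female libraries, against 1175, 1152 and 1141 CPM in endothelial cells. The endothelial level was 26.3%, 28.3% and 29.9% of the podocyte level, and 25.4%, 26.0% and 28.7% in endothelial cells without Nphs1 UMIs. Podocalyxin is also known as an endothelial surface protein. Parietal epithelial cells had 42.56 to 76.36 CPM, smooth muscle and renin cells 80.95 to 100.4 CPM, and mesangial cells 57.18 to 67.14 CPM. In parietal epithelial cells of the male, female ERaKO and female libraries that was 0.952%, 1.68% and 2% of the podocyte level. These values lay under the 1.43%, 3.47% and 3.31% of Nphs1 there, and their source was not tested. In smooth muscle and renin cells it was 1.95%, 1.99% and 2.63%, beside 2.27%, 1.96% and 2.22% for Nphs1. In mesangial cells it was 1.5%, 1.63% and 1.5%, above the 1.17%, 1.11% and 0.876% of Nphs1 in 3 of 3 libraries. It was 1.04%, 0.754% and 1.59% in those without Nphs1 UMIs. The 12 podocyte markers had medians of 1.38%, 1.44% and 1.09% in mesangial cells, and the highest reached 8.91%, 14.7% and 11.8%. The endothelial list summed to 1641, 1954 and 2076 CPM there. The source of the mesangial Podxl UMIs was not tested. Mononuclear phagocytes had 58.94, 266.4 and 250.7 CPM, or 1.32%, 6.55% and 6.56%, and 0.949%, 3.04% and 4.35% without Nphs1 UMIs.

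Ezr, which links membrane proteins to actin (chromosome 17, 6738041-6782784, minus strand), had an epithelial and phagocyte pattern. It had 543.0, 579.1 and 552.2 CPM in podocytes of the male, female ERaKO and female libraries, against 420.9, 401.0 and 334.6 CPM in parietal epithelial cells and 313.2, 342.7 and 341.4 CPM in proximal tubule cells. Parietal and tubular ranges overlapped with each other and not with podocytes. Mononuclear phagocytes had 261.5, 159.8 and 189.2 CPM. Endothelial cells had 43.35 to 49.41 CPM, smooth muscle and renin cells 21.69 to 28.50 CPM, and mesangial cells 3 to 14 UMIs per library. Podxl and Ezr therefore diverged: in endothelial cells Podxl stood at 26.3% to 29.9% of its podocyte level and Ezr at 7.85% to 9.10%, while in parietal epithelial cells Podxl stood at 0.952% to 2% and Ezr at 60.6% to 77.5%. Ezr overlaps Sytl3 on the other strand, which had at most 4 UMIs in a podocyte sum.

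Slc9a3r1, the scaffold between ezrin and membrane proteins (chromosome 11, 115163341-115181181, plus strand), was highest in proximal tubule cells, where NHERF1 is known to hold the phosphate transporter at the brush border. It had 82.95, 88.86 and 86.36 CPM in podocytes of the male, female ERaKO and female libraries, against 175.9, 167.3 and 177.9 CPM in proximal tubule cells. Mesangial cells had 69.38, 113.4 and 72.09 CPM and parietal epithelial cells 83.53, 95.14 and 75.36 CPM, and both ranges overlapped with podocytes. Endothelial cells, at 26.10, 25.26 and 20.88 CPM, and smooth muscle and renin cells, at 14.10, 15.96 and 11.24 CPM, lay below. The proximal tubule class was made of different clusters in different libraries: cluster 20 held 94 of its 98 cells from the male library, and cluster 15 held none from it.

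Dag1 encodes dystroglycan, a receptor for laminin, agrin and perlecan (chromosome 9, 108204634-108263958, minus strand). It had 915.6, 811.1 and 745.3 CPM in podocytes of the male, female ERaKO and female libraries, against 1085, 1206 and 762.6 CPM in parietal epithelial cells. The parietal level was higher in 3 of 3 libraries, at 118%, 149% and 102% of the podocyte level, and the ranges overlapped. The podocyte list summed to 971.0, 1112 and 1015 CPM in parietal epithelial cells, and in those without Nphs1 UMIs Dag1 was 123%, 147% and 107% of the podocyte level. The 11 smooth muscle and renin markers summed to 1353, 4574 and 1907 CPM in parietal epithelial cells, with 2, 0 and 4 of them at 0, beside 4745, 4598 and 4290 CPM for the 10 parietal markers. Dag1 in the smooth muscle and renin class itself lay below its parietal level in each library, and the part of that list in the parietal value was not tested. Mesangial cells had 395.4, 346.4 and 318.2 CPM, smooth muscle and renin cells 235.4, 213.8 and 209.6 CPM, and endothelial cells 166.5, 168.3 and 148.5 CPM. The endothelial level was 18.2% to 20.7% of the podocyte level.

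**Figure D2:**
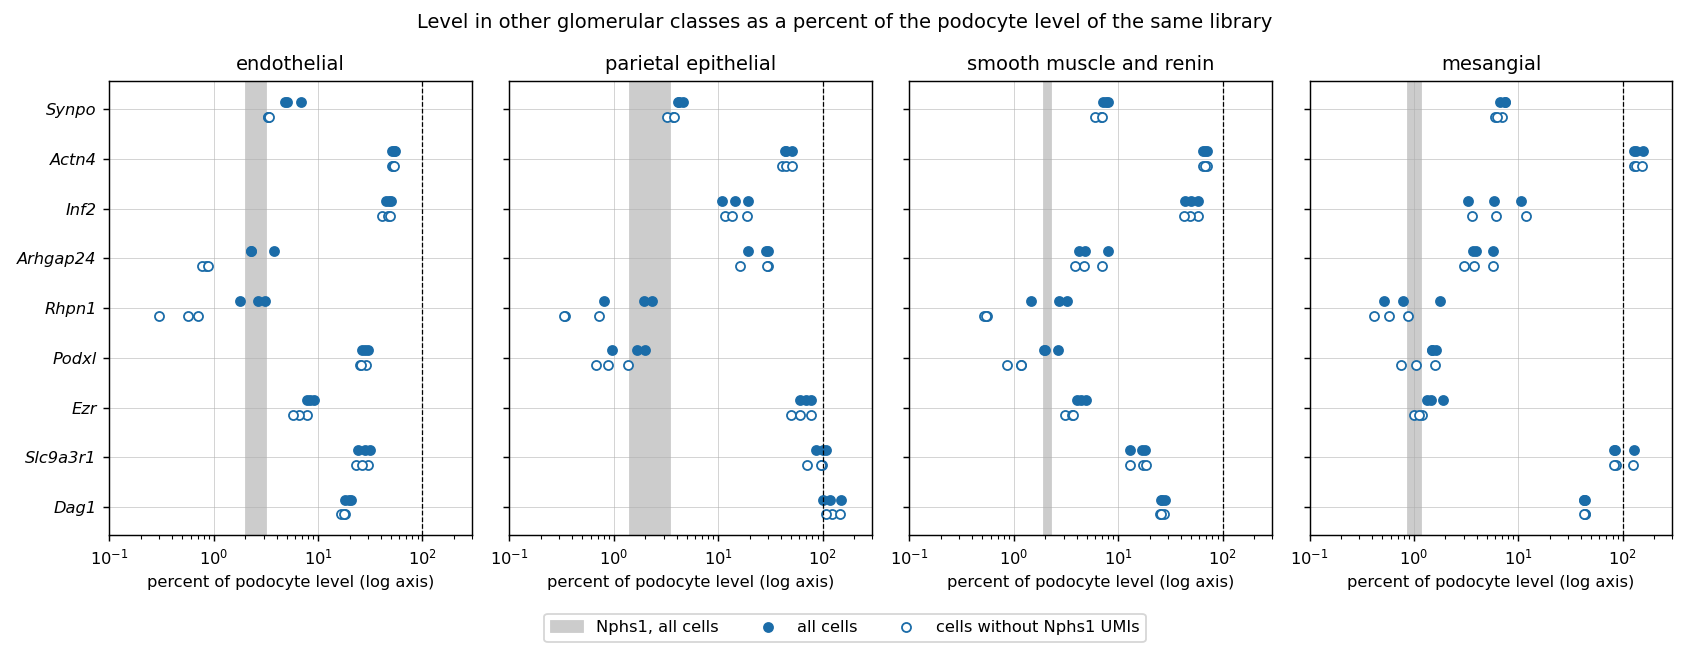
Level of each gene in 4 other classes as a percent of its podocyte level in the same library (log axis), in all cells of the class (filled) and in cells without Nphs1 UMIs (open), 1 point per library. The grey band spans Nphs1 in all cells of the class over the libraries, from 2.06% to 3.16% in endothelial cells. The dashed line is the podocyte level. The open points of Rhpn1 lie left of the band in endothelial, parietal epithelial, and smooth muscle and renin cells. Those cells were chosen to lack Nphs1, so the band is no reference for open points. In all endothelial cells Actn4, Inf2, Podxl, Slc9a3r1 and Dag1 lie far to the right of the band.

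The differences between classes were tested over the 3 libraries with edgeR's quasi-likelihood test, fitted to all 12749 genes with library as a block and Benjamini-Hochberg adjustment, on the scale of TMM-normalised counts. A call is an adjusted p under 0.05. The block takes out differences between libraries that all classes share. The p-values and standard errors (SE) thus rest on the scatter left between classes and libraries, and do not measure the spread between mice. The libraries also differ in sex and genotype. Against endothelial cells all 9 genes were higher in podocytes, where 30.8% of all genes were higher and 34.2% lower. The median log2 fold of the 9 genes was 2.46, against -0.06 over all genes. The largest was Rhpn1 at 5.44 ± 0.24 (SE, adjusted p = 1.3e-14), with Arhgap24 at 5.30 ± 0.24 and Synpo at 4.28 ± 0.28. The smallest were Actn4 at 1.02 ± 0.12 (adjusted p = 9.03e-08), Inf2 at 1.18 ± 0.15 and Podxl at 1.95 ± 0.26 (adjusted p = 8.13e-07). All 9 were higher in podocytes in 3 of 3 libraries.

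Against parietal epithelial cells 7 of the 9 genes were higher and none lower, where 27.3% of all genes were higher and 31.1% lower. The median log2 fold was 2.19, against -0.03 over all genes. Podxl led with 6.35 ± 0.32 (SE, adjusted p = 2.92e-13 by edgeR), followed by Rhpn1 at 6.16 ± 0.29 and Synpo at 4.81 ± 0.30. Arhgap24 stood at 2.19 ± 0.20 and Ezr at 0.80 ± 0.14 (adjusted p = 2.94e-05). Slc9a3r1 had a log2 fold of 0.29 ± 0.14 (adjusted p = 0.0782) and Dag1 of -0.03 ± 0.13 (adjusted p = 0.889). Neither passed the threshold. Scaling mattered here: with library totals alone the median over all genes moved to -0.28 and the Dag1 value to -0.29, and all genes split into 2170 higher and 5108 lower, where TMM gave 3483 and 3960. With DESeq2 size factors the split was 2789 and 4439. With library totals alone the median over all genes was -0.16 against both endothelial and mesangial cells, and no member changed sign against any of the 4 classes.

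Against smooth muscle and renin cells all 9 genes were higher, where 26.8% of all genes were higher and 27.9% lower. The median log2 fold was 3.69, against -0.02 over all genes. The smallest values were Actn4 at 0.53 ± 0.12 (SE, adjusted p = 0.000549 by edgeR) and Inf2 at 0.96 ± 0.18 (adjusted p = 8.32e-05). Dag1 stood at 1.89 ± 0.14, Slc9a3r1 at 2.62 ± 0.18 and the other 5 between 3.69 and 5.53.

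Against mesangial cells 7 genes were higher and 1, Actn4, lower, where 26.2% of all genes were higher and 25.6% lower. The median log2 fold was 4.39, against 0.02 over all genes. Rhpn1 at 6.62 ± 0.34 (SE), Podxl at 6.17 ± 0.33 and Ezr at 6.15 ± 0.22 (adjusted p = 1.07e-15 by edgeR) were the most distant, and Dag1 stood at 1.43 ± 0.14. Slc9a3r1 had 0.21 ± 0.15 (adjusted p = 0.253). The Actn4 value was -0.28 ± 0.12 (adjusted p = 0.0486), and the call was lost when any of the 3 libraries was left out (adjusted p = 0.0904 without the male, 0.368 without the female ERaKO and 0.0781 without the female library). Without the library block its adjusted p was 0.0707. Without the female ERaKO library Slc9a3r1 was called higher in podocytes (0.50, adjusted p = 0.0337). All genes split into 3338 higher and 3259 lower with TMM, 3013 and 3483 with DESeq2 size factors, and 2464 and 3969 with library totals alone. Over the 4 comparisons together, Synpo, Inf2, Arhgap24, Rhpn1, Podxl and Ezr were higher in podocytes each time, 6 of 9 genes where 12.2% of all genes were.

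**Figure D3:**
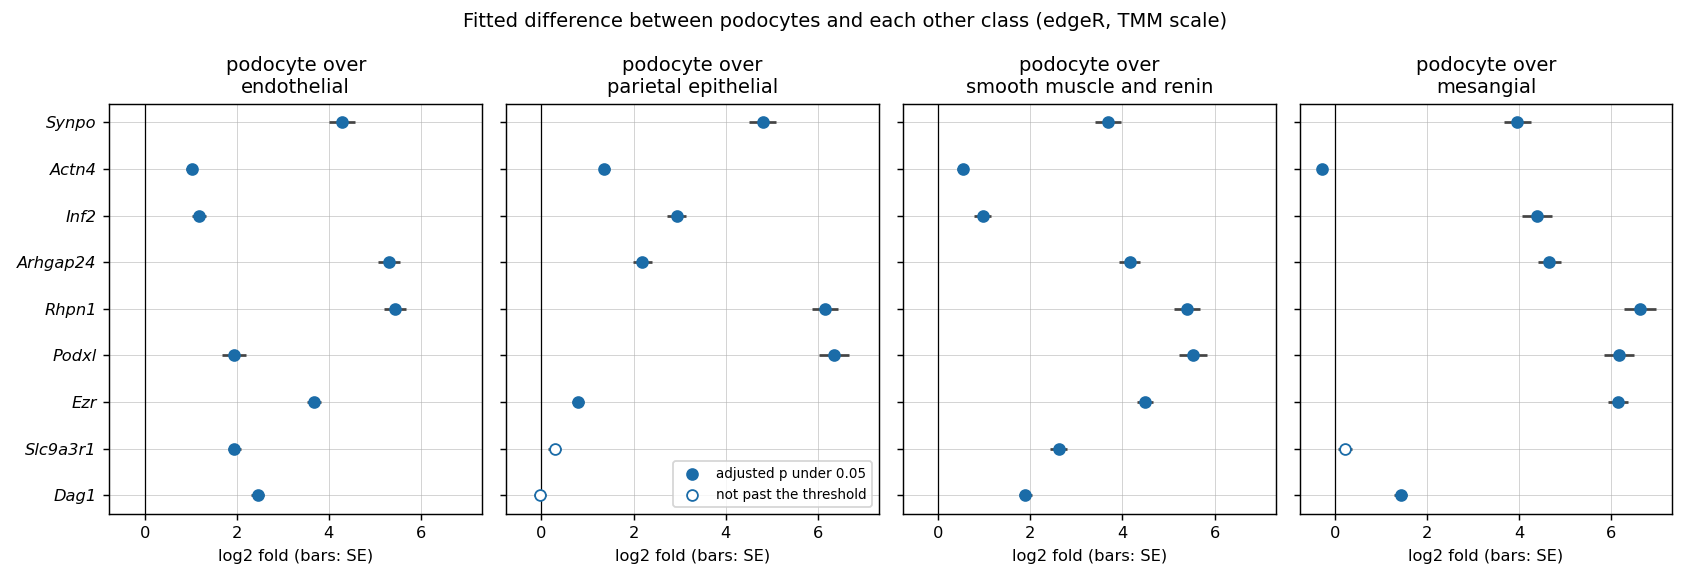
Fitted log2 fold of podocytes over 4 other classes (edgeR, TMM scale) for the 9 genes, with bars for 1 SE of the fit to 3 libraries. Filled points passed an adjusted p of 0.05, and the 3 values nearest 0 are Dag1 against parietal epithelial cells, Slc9a3r1 against mesangial cells and Actn4 against mesangial cells.

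To count the cells that carried a gene, each cell was thinned to 4000 UMIs and the share of cells with at least 1 UMI was counted. Podxl was seen in all 1142, 782 and 1323 podocytes and in 97.2%, 97.8% and 98.5% of endothelial cells of the male, female ERaKO and female libraries. Nphs1, which endothelial cells should lack, was seen in 6.42%, 5.39% and 5.82% of endothelial cells. Synpo was seen in 98.8%, 98.7% and 98.2% of podocytes, against 17.8%, 20.4% and 17.5% of endothelial cells and 32.6%, 33.1% and 32.9% of smooth muscle and renin cells. Rhpn1 was seen in 81.1%, 87.5% and 82.5% of podocytes, against 2.95%, 2.99% and 2.91% of endothelial cells. Before thinning the Rhpn1 shares were 94.7%, 98.0% and 96.1% of podocytes and 3.98%, 5.79% and 4.51% of endothelial cells.

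Actn4 was widespread: after thinning it was seen in 90.9%, 90.2% and 87.4% of podocytes of the male, female ERaKO and female libraries, against 96.3%, 97.0% and 86.4% of mesangial cells and 71.1%, 68.3% and 67.0% of endothelial cells. Dag1 was seen in 96.7%, 94.5% and 92.4% of podocytes, against 99.2%, 96.3% and 90.9% of parietal epithelial cells. Ezr was seen in 85.5%, 87.1% and 86.2% of podocytes, against 76.2%, 75.2% and 66.2% of parietal epithelial cells and 4.71%, 1.48% and 2.27% of mesangial cells. Arhgap24 was seen in 60.7%, 56.5% and 45.5% of parietal epithelial cells. Inf2 and Slc9a3r1 were thin at this depth, with 22.6% to 24.3% and 27.6% to 29.6% of podocytes.

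Podocytes fell into 3 clusters that the 9 genes had no part in making. Across clusters 0, 1 and 3 Synpo ranged from 1341 to 1607 CPM, Podxl from 3703 to 4544 CPM and Rhpn1 from 431.6 to 601.3 CPM over all libraries. A further 466 cells, cluster 5, had podocyte markers as their best list but too low a score to be named, with Cst12, Igfbp6 and Pla2g7 as leading genes. In these cells Rhpn1 had 228.5, 154.3 and 214.1 CPM in the male, female ERaKO and female libraries, and Podxl 2829, 2004 and 2617 CPM, all below the lowest podocyte cluster. Dag1 had 1320, 1302 and 1120 CPM there, above the highest podocyte cluster at 936.2 CPM. Of the 12 podocyte markers, 1 was at least 2-fold up in cluster 5 over the other clusters. Cluster 5 thus differed from named podocytes in opposite directions for these genes. No test was made, because the clusters were formed from the same cells.

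Within single podocytes the members were weakly correlated at most. Over the cells of a library, thinned counts of Podxl and Nphs1 had Pearson correlations of 0.257, 0.164 and 0.224 in the male, female ERaKO and female libraries, and Podxl and Dag1 0.224, 0.198 and 0.158. Podxl and Ezr, partners in 1 complex, had -0.01, -0.057 and 0.021, and Slc9a3r1 with Ezr -0.039, 0.051 and 0.013. Cells share library and capture, and counts this sparse hold correlations near 0, so these values are descriptive and no finding.

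Across the 21 sums of 7 classes in 3 libraries, which share libraries and class structure, the gene most like each member on log2(CPM + 1) was named. Rhpn1 was closest to Ddn (Pearson r = 0.978), which encodes dendrin, and next to Nphs1 (0.975). Podxl was closest to Cldn5 (0.98), a claudin of endothelial cells and podocytes, Actn4 to Myo1d (0.976), Ezr to Retreg1 (0.975) and Dag1 to Ptov1 (0.972). Synpo was closest to Golim4 (0.961), Arhgap24 to Sdc4 (0.958), Inf2 to Tmtc1 (0.89) and Slc9a3r1 to Lamp2 (0.878). Among the members themselves the highest of 36 correlations was between Rhpn1 and Podxl (0.831), and the lowest between Inf2 and Slc9a3r1 (-0.576). Podxl and its linker Ezr had 0.276, and Ezr and its scaffold Slc9a3r1 0.52.

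The male and female ERaKO libraries were each set against the female library, with 1 library per group and so no test. The intervals given are exact 95% intervals of the ratio of counts and cover counting error, not the spread between mice. Both comparisons use the same female library. In podocytes no member reached 1.5-fold in the male over female comparison, where 3.90% of 11437 genes did, nor in female ERaKO over female, where 6.60% of 11282 did. The median log2 ratio of the 9 genes was -0.02 for male over female and 0.04 for female ERaKO over female, against 0.02 and -0.01 over all genes.

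Dag1 had 915.6 CPM in male and 745.3 CPM in female podocytes, a log2 ratio of 0.30 (0.26 to 0.34). Podxl had 4469 CPM in male and 3820 CPM in female podocytes, a log2 ratio of 0.23 (0.21 to 0.24). The other 7 lay between -0.06 and 0.11, with Slc9a3r1 lowest and Actn4 highest. In the other comparison Rhpn1 had 586.4 CPM in female ERaKO and 477.0 CPM in female podocytes, a log2 ratio of 0.30 (0.24 to 0.35). Arhgap24 had 916.5 CPM in female ERaKO and 1004 CPM in female podocytes, a log2 ratio of -0.13 (-0.17 to -0.09). Synpo had 1418 CPM in female ERaKO and 1461 CPM in female podocytes (-0.04, from -0.08 to -0.01). Several of these intervals leave out 0, which the depth of 7112645 to 15412476 UMIs per podocyte sum allows at small differences.

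**Figure D4:**
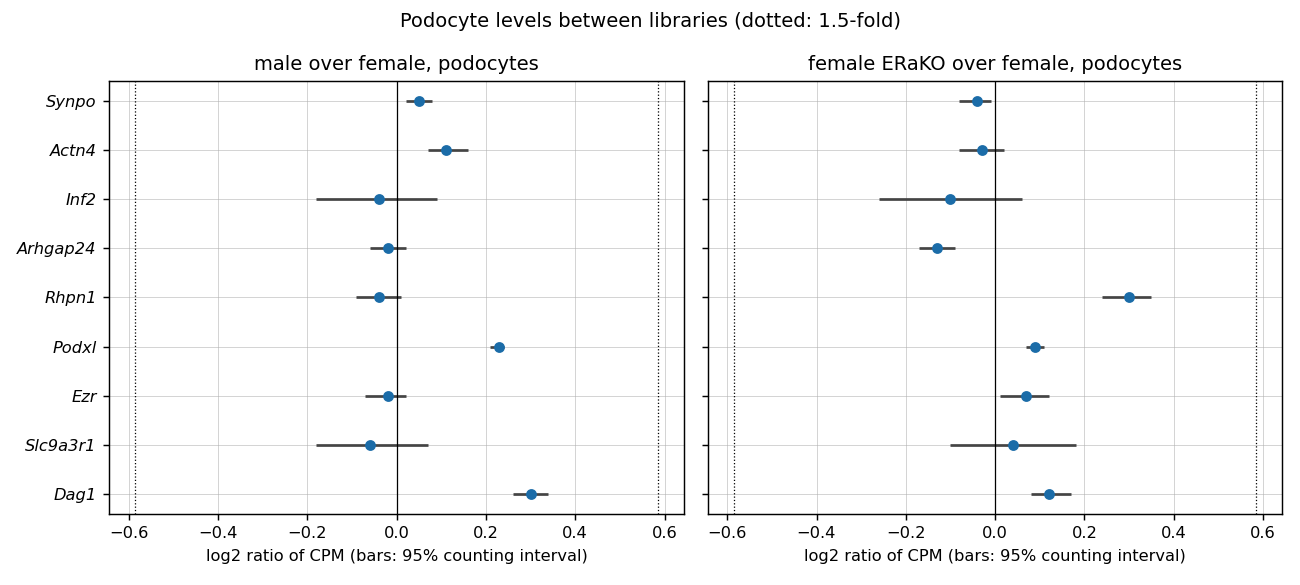
Log2 ratio of CPM in podocytes for male over female (left) and female ERaKO over female (right), 1 library per group, with bars for the exact 95% interval of the counts. All 9 points lie inside the dotted lines at 1.5-fold in both panels, and the farthest from 0 are Dag1 on the left and Rhpn1 on the right, both at 0.30.

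In the other classes, with 402272 to 6943094 UMIs a sum, more genes passed 1.5-fold. For male over female the background was 6.07% of genes in endothelial cells, 17.5% in parietal epithelial cells, 15% in smooth muscle and renin cells and 19.7% in mesangial cells. Members with at least 20 UMIs over both sums passed as follows: none of 9 in endothelial cells, 2 of 8 in parietal epithelial cells, 1 of 9 in smooth muscle and renin cells and none of 6 in mesangial cells. Arhgap24 in parietal epithelial cells had 295.8 CPM in the male and 195.9 CPM in the female library (log2 ratio 0.59, from 0.36 to 0.84). In smooth muscle and renin cells Arhgap24 had 47.18 CPM in the male and 80.30 CPM in the female library (-0.75, from -1.20 to -0.34). Cluster 10, led by Ren1, held 99 of 288 male and 35 of 158 female cells of that class, and its part was not tested. Podxl in parietal epithelial cells had 42.56 CPM in the male and 76.36 CPM in the female library (-0.83, from -1.31 to -0.37), where Nphs1 stood at 1.43% and 3.31% of its podocyte level in the same 2 libraries. The part of free podocyte RNA in that difference was not tested.

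For female ERaKO over female the background was 8.77% of genes in endothelial cells, 18% in parietal epithelial cells, 18.2% in smooth muscle and renin cells and 21.1% in mesangial cells. None of 9 members passed in endothelial cells, 1 of 9 in parietal epithelial cells, 2 of 9 in smooth muscle and renin cells and 1 of 6 in mesangial cells. Dag1 in parietal epithelial cells had 1206 CPM in the female ERaKO and 762.6 CPM in the female library (0.66, from 0.55 to 0.77). The smooth muscle and renin list moved with it, at 4574 CPM in female ERaKO and 1907 CPM in female parietal epithelial cells, and its part was not tested. Arhgap24 in smooth muscle and renin cells had 38.76 CPM in the female ERaKO and 80.30 CPM in the female library (-1.03, from -1.52 to -0.59), on 68 and 100 UMIs. Rhpn1 there had 15 and 19 UMIs (-0.77, from -1.92 to 0.22). Cluster 10, led by Ren1, held 110 of 248 female ERaKO and 35 of 158 female cells of that class. The podocyte list summed to 746.8 CPM in the female ERaKO and 893.0 CPM in the female sum of the class. The part of either in these ratios was not tested. Slc9a3r1 in mesangial cells had 113.4 CPM in the female ERaKO and 72.09 CPM in the female library (0.65, from 0.07 to 1.28) on 147 and 29 UMIs. These counts of members are small and are not set apart from the backgrounds.

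The closest relatives of the members divided the classes in other ways. Unlike the members, these relatives and the listed genes further on were open to use in clustering. Their calls are therefore not independent of how the classes were formed. Msn (moesin, of the ezrin family) had 71.13, 61.58 and 62.61 CPM in podocytes of the male, female ERaKO and female libraries, against 658.4, 636.9 and 632.9 CPM in endothelial cells and 379.7, 384.2 and 427.6 CPM in mesangial cells. It was lower in podocytes than in all 4 classes (log2 folds -3.20 against endothelial, -2.91 against parietal epithelial, -2.02 against smooth muscle and renin and -2.40 against mesangial cells, adjusted p of 3.54e-10 or less by edgeR). Rdx (radixin) was lower in podocytes than in endothelial cells (-2.34, adjusted p = 1.79e-10), with 268.0, 242.0 and 238.6 CPM in podocytes against 1420, 1246 and 1397 CPM in endothelial cells. Ezr was higher in podocytes than in each of the 4 classes. Slc9a3r2 (NHERF2), the other podocalyxin scaffold, had 595.9, 594.6 and 623.7 CPM in podocytes, against 1385, 1409 and 1365 CPM in endothelial cells and 50.01, 54.33 and 38.18 CPM in parietal epithelial cells. It was lower in podocytes than in endothelial cells (-1.09, adjusted p = 0.00112) and higher than in parietal epithelial cells (3.90, adjusted p = 7e-10). Endothelial cells with Podxl thus held Slc9a3r2, Rdx and Msn above and Ezr and Slc9a3r1 below their podocyte levels.

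Actn1, the other non-muscle alpha-actinin, had 65.98, 81.26 and 62.29 CPM in podocytes of the male, female ERaKO and female libraries, against 471.8, 442.4 and 422.4 CPM in smooth muscle and renin cells and 286.8, 337.4 and 274.3 CPM in parietal epithelial cells. It was lower in podocytes than in both (log2 folds -2.70 and -1.85, adjusted p of 5.42e-10 or less by edgeR) and higher than in endothelial cells (1.42, adjusted p = 4.85e-08). Actn2 and Actn3, the muscle forms, had at most 3 UMIs in a sum. Diaph1, another formin, was lower in podocytes than in all 4 classes (log2 folds from -0.71 to -0.42), where Inf2 was higher against each. Synpo2, a muscle relative of Synpo, had 92.74, 83.80 and 76.29 CPM in smooth muscle and renin cells and at most 1 UMI in a podocyte sum. Rhpn2 had 8.009, 5.343 and 7.591 CPM in podocytes, against 29.03, 22.73 and 21.03 CPM in endothelial cells (log2 fold -1.66, adjusted p = 5.53e-07).

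**Figure D5:**
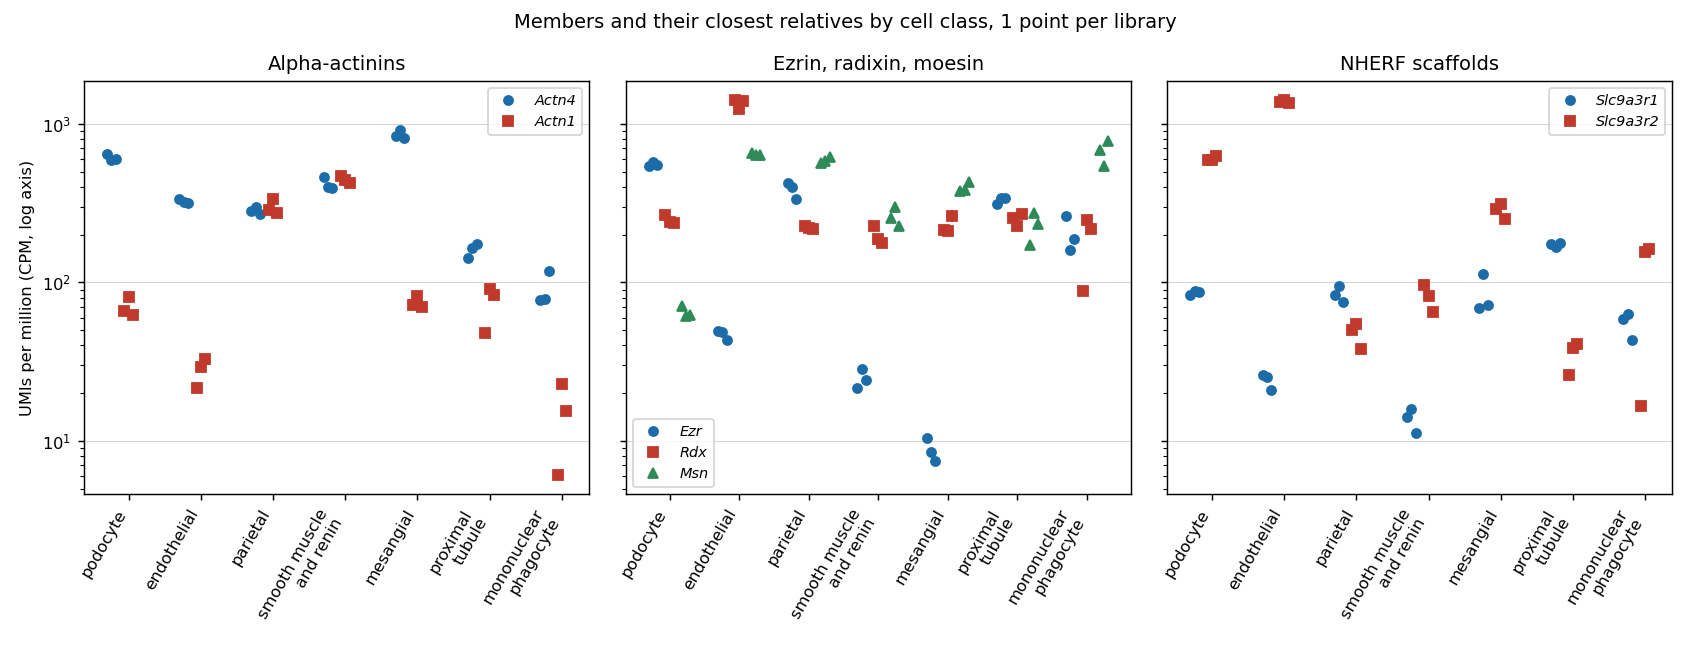
Levels in CPM (log axis) of 3 members and their relatives in 7 classes, podocytes at the left, 1 point per library in the order male, female ERaKO, female. Each gene is to be read across classes and not against another gene: Ezr is highest in podocytes, Msn lowest there, and Rdx and Slc9a3r2 highest in endothelial cells.

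The rest of the foot process actin machinery, 30 listed genes, was mixed. Against endothelial cells 13 were higher in podocytes and 12 lower (median log2 fold 0.02), against parietal epithelial cells 15 and 6 (0.32), against smooth muscle and renin cells 13 and 11 (0.31), and against mesangial cells 9 and 15 (-0.37), where the medians over all genes were -0.06, -0.03, -0.02 and 0.02. Over all genes 30.8%, 27.3%, 26.8% and 26.2% were higher in podocytes and 34.2%, 31.1%, 27.9% and 25.6% lower, in the same order of classes. Against all 4 classes 7 of 30 were higher, where 12.2% of all genes were: Kank1, Srgap1, Fyn, Cd2ap, Parva, Nck2 and Wasl. Cd2ap, an adaptor of the slit diaphragm, had log2 folds of 2.04, 2.14, 2.83 and 1.77 in the order of classes just given, and Srgap1, a GTPase-activating protein, 4.39, 4.13, 5.77 and 5.89. Against all 4 classes 4 of 30 were lower, near the 9.84% of all genes: Vasp, Evl, Vcl and Tln1, which encode actin-end and focal adhesion proteins. Vcl (vinculin) had -0.73, -1.58, -2.36 and -4.15. These 11 calls held with each of 3 scalings.

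Among 13 listed apical genes, 6, 6, 6 and 6 were higher in podocytes and 6, 2, 5 and 4 lower against endothelial, parietal epithelial, smooth muscle and renin, and mesangial cells, with medians of 0.03, 0.02, 0.31 and 0.34. Ptpro, an apical receptor phosphatase, is also 1 of the 12 markers that named the podocyte class, so its call was fixed by that and is no result. The other listed genes were open to use in clustering, so their calls are not independent of the classes either. Without Ptpro 5 of 12 were higher in each comparison, with medians of -0.45, -0.11, 0.10 and 0.23. Over all genes 30.8%, 27.3%, 26.8% and 26.2% were higher and 34.2%, 31.1%, 27.9% and 25.6% lower, in the same order of classes. Pdpn (podoplanin), Clic5 and Crb2 were higher against all 4, where 12.2% of all genes were. Msn, 1 gene of the list, was lower against all 4, near the 9.84% of all genes. Clic5, a chloride channel family protein that binds ezrin, had log2 folds of 1.51, 4.15, 5.94 and 6.67. Of 17 genes for dystroglycan partners and glycosylation, 15 were tested, and 10, 8, 4 and 8 were higher and 4, 4, 6 and 4 lower, with medians of 0.62, 0.47, -0.30 and 0.55, beside the same shares of all genes. The glycosyltransferase gene B4gat1 (1.48, 0.57, 1.64 and 0.69) was higher against all 4 classes with each scaling, and Agrn, the ligand agrin, with TMM but not with each other scaling. Sgce, Sntb1 and Sntb2 were lower against all 4. Against all 4 classes together 3 of 15 were higher and 3 lower, where 12.2% and 9.84% of all genes were, and nothing is read from counts this small. Dmd (dystrophin) was higher against endothelial cells (1.81, adjusted p = 7.13e-07 by edgeR) and lower against the other 3 classes, most against smooth muscle and renin cells (-4.21, adjusted p = 9.15e-15).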

How the data were processed

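Each deposited matrix holds raw counts, 1 whole number of UMIs for a gene in a barcode, and the authors had already selected the barcodes by a rule not given in the sources used here. The submitters' processing notes name mm10 as build, STAR 2.7.5a and Cell Ranger 6.1.2. The labels' protocols describe 10x 3′ libraries. Totals were 44585342 UMIs (male), 47522141 (female ERaKO) and 44942380 (female), and 4 to 8 barcode sequences occurred in both libraries of a pair.

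Barcodes under 500 genes or over 25% mitochondrial UMIs were left out, and 109, 93 and 72 doublets (Scrublet score of 0.2 or more, in scanpy 1.11.5) removed. Leiden clustering (leidenalg 0.10.2, resolution 1, 15 neighbours, 30 components of 2000 variable genes without the 9 genes) gave 27 clusters. A cluster was named with a marker score of at least 1, a lead of 0.75 and 3 markers 2-fold up, with no other list leading its 10 top genes. These minima and the doublet score were set after the data were seen. Classes with at least 30 cells in each library entered the fit.

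Sums were tested with edgeR 4.0.16 (R 4.3.3; filterByExpr with a minimum count of 10, TMM, library as a block) and, as an alternative, DESeq2 1.42.0. The code was tested on simulated data. Library ratios used a pseudocount of 1 CPM and genes with at least 20 UMIs over both sums. Intervals are at 95% and cover counting error only. Gene positions are those of GENCODE M21. The named genes are the 9 members, fixed lists of relatives and pathway genes, and the most correlated genes; the members and lists were chosen with earlier results of these data known. Results that rest on a few other genes are not reported here.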

Additional observations from a re-analysis of the deposited data

How the results depend on the processing

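The 8 other settings of the class tests (other scaling, no count filter, DESeq2, no library block, each library left out) and 6 other ways of choosing cells left the counts of members higher in podocytes within 1.5 times the reported counts for all 4 classes. The count of members lower than in mesangial cells, 1 (Actn4), became 0 with no filter on low counts, with no library block, with members allowed among the clustering genes, with classes set cell by cell, with the stricter cell filter (at least 1000 genes, at most 10% mitochondrial UMIs), with doublets kept and with other cells carrying Nphs1 left out (an alternative chosen after seeing the data), and 0 to 0 with a library left out. Over these settings the adjusted p of Actn4 ran from 0.051 to 0.736. It stayed lower with DESeq2 (-0.36), DESeq2 size factors (-0.35), library totals alone (-0.49) and the unnamed podocyte cluster added (-0.29). The cause was not tested. Slc9a3r1 against parietal epithelial cells passed with no count filter (0.45, adjusted p = 0.00759), the stricter cell filter (0.32, 0.0153) and other cells carrying Nphs1 left out (0.42, 0.0193), adjusted p by edgeR. Between libraries, pseudocounts of 0.1 and 10 CPM, TMM scaling and totals without mitochondrial genes left 0 members past 1.5-fold in podocytes; Podxl moved to 0.21 for male over female with TMM and to 0.06 for female ERaKO over female with the unnamed cluster added. Low counts limit Inf2, Rhpn1 and Ezr in mesangial cells, with 1 to 14 UMIs a sum.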
